A study of Mus musculus with 8 samples.

Results

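The transcripts described here are those of the mitochondrial genome in mouse brain, taken as every gene that the deposited table places on chromosome MT. They were 37 of 54532 genes in the table, namely 13 protein-coding genes, 2 ribosomal RNA (rRNA) genes and 22 transfer RNA (tRNA) genes. The study set brain of mice with the genotype label Nsun5-KO (KO) against brain of mice labelled wild type (WT), where Nsun5 is a methyltransferase of cytosolic ribosomal RNA. Ribosome profiling, which sequences the RNA fragments left after nuclease digestion of ribosome-bound RNA, gave 4 footprint libraries labelled KO and 4 labelled WT. The table also held 8 mRNA libraries under the same genotype names and numbers, 4 KO and 4 WT. All mice were males of 3 months, and both genotypes had the same pentobarbital anaesthesia before the brain was taken. The protocol names 5 mice per genotype from 1 litter and no label says which mouse gave which library, so a p-value here measures the spread between libraries, which may be technical. How the Nsun5 allele was made and which part of the gene it removes are not given in the sources used here.

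The mitochondrial genome is a small circle transcribed from both strands into long precursors, which are cut at the tRNAs that lie between the other genes. Its protein-coding genes all encode membrane subunits of the respiratory chain and ATP synthase, and its rRNAs and tRNAs serve the mitochondrial ribosome that translates them, apart from the cytosolic ribosome. Every other subunit of these complexes, and every protein of the mitochondrial ribosome, is encoded in the nucleus.

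Nsun5 itself had 102, 124, 83 and 110 mRNA counts in KO libraries 1 to 4 and 91, 82, 103 and 109 in WT libraries 1 to 4. These counts do not separate the groups, so KO and WT below name the labels of the libraries. Footprint libraries held 586392 to 1296876 gene-assigned counts in KO and 1201263 to 3493841 in WT, of which 232530 to 847044 in KO and 791699 to 1467410 in WT lay on protein-coding genes. KO library 3 was the shallowest. MicroRNA genes took 24.6 to 60.3% of footprint counts in KO and 23.0 to 55.0% in WT. The mRNA libraries held 16210943 to 17829523 counts in KO and 15642086 to 17378608 in WT.

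Mitochondrial coding genes took far more of the mRNA libraries than of the footprint libraries, and the make-up of mitochondrial counts by class differed between the 2 kinds of library. In mRNA, the 13 coding genes held 5.48, 4.71, 4.80 and 5.35% of all counts in KO libraries 1 to 4 and 6.34, 6.66, 5.22 and 5.13% in WT libraries 1 to 4. In footprints they held 0.298, 0.413, 0.908 and 0.419% in KO and 0.491, 0.277, 0.206 and 0.460% in WT. The widest 95% binomial interval (exact, Clopper-Pearson) of such a share reached 0.0244 percentage points to either side in footprints and 0.0124 in mRNA; these intervals, like the count floors below, cover counting error only. The groups overlapped in both kinds of library. These totals include the microRNA counts, which differ between the kinds. Of protein-coding counts alone, the 13 genes held 1.26 ± 0.716% in KO and 0.754 ± 0.273% in WT footprints (SD, n = 4 each). In mRNA they held 5.20 ± 0.386% in KO and 5.98 ± 0.802% in WT. The order of libraries also changed, with KO library 1 at 0.997% of protein-coding footprint counts and KO library 2 at 0.632%.

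Ribosomal RNA was the largest mitochondrial class in 7 of the 8 footprint libraries, while KO library 3 had 5323 coding counts and 4709 rRNA counts. The 2 rRNA genes made up 60.3 ± 14.8% of mitochondrial footprint counts in KO and 64.5 ± 7.17% in WT (SD, n = 4 each), the coding genes 27.5 ± 12.2% in KO and 23.6 ± 5.97% in WT, and the tRNA genes 12.2 ± 3.47% in KO and 11.9 ± 1.83% in WT. In the mRNA libraries the coding genes made up 86.0 ± 1.84% in KO and 87.0 ± 0.484% in WT, the rRNA genes 13.7 ± 1.81% in KO and 12.7 ± 0.490% in WT, and the tRNA genes 0.306 ± 0.0309% in KO and 0.265 ± 0.0343% in WT. The extraction notes describe removal of rRNA during footprint preparation, so the rRNA share is what was left after that step. Reads on rRNA and tRNA genes are fragments of those RNAs and not a measure of translation. Of the 37 genes, 27 had a footprint count in at least 1 library and 35 had an mRNA count.

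**Figure D1:**
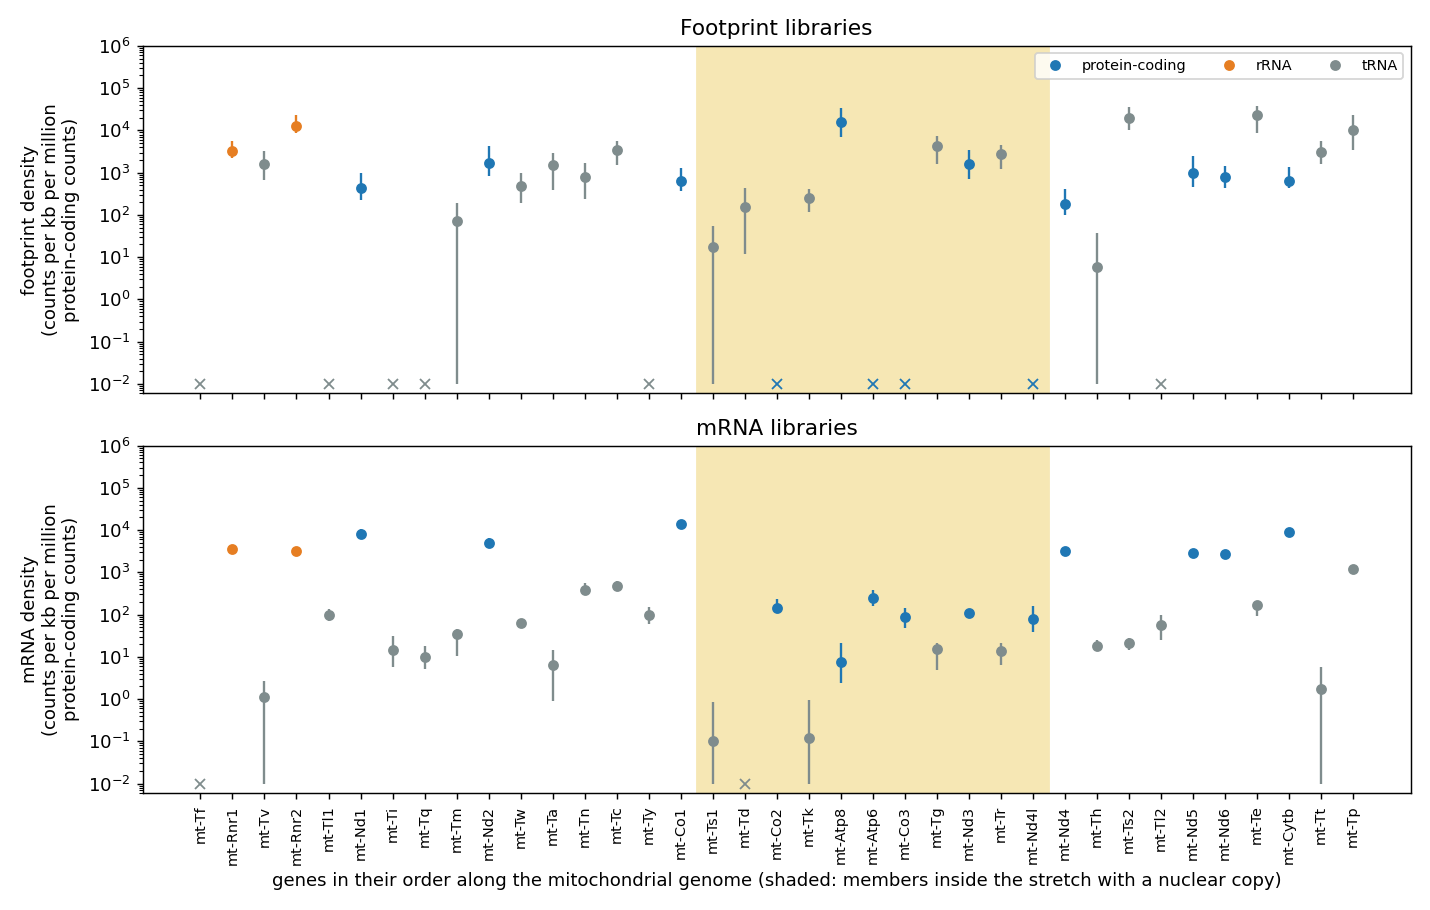
Density (CPM, counts scaled to a common total, here the protein-coding counts, per kb of gene; log axes) of the 37 mitochondrial genes in their order along the genome, in footprint libraries above and mRNA libraries below. Points are means of 8 libraries, lines span the lowest to the highest library, crosses on the bottom line mark genes with 0 counts in all 8, lines that reach the bottom include a library at 0, and the shaded band holds the members inside the stretch with a nuclear copy, where the coding genes are low in mRNA.

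Among the coding genes, mRNA density, meaning CPM with protein-coding counts as the total, divided by gene length in kb, split into a high and a low set by position. Coordinates are those of mm10 in the deposited table. Density was highest for mt-Co1 (MT:5328-6872), the catalytic subunit of cytochrome c oxidase, at a mean of 13771 over 8 libraries (range 12119 to 16084). Next came mt-Cytb (MT:14145-15288), the cytochrome b of complex III, at 8786 (7559 to 10842), and mt-Nd1 (MT:2751-3707), a complex I subunit, at 8149 (6646 to 10767). The ranges of mt-Cytb and mt-Nd1 overlap, so the order of these neighbours is not separated by their spread. The other complex I genes of the high set were mt-Nd2 (MT:3914-4951) at 5052, mt-Nd4 (MT:10167-11544) at 3235, mt-Nd5 (MT:11742-13565) at 2901 and mt-Nd6 (MT:13552-14070, the only coding gene on the minus strand) at 2682. The last 3 had overlapping ranges. mt-Nd6 shares its 3′ end with mt-Nd5 on the opposite strand and the strand setting of the counting is not given in the sources used here, so reads in the shared bases cannot be assigned to either gene. Over the rest of mt-Nd6, reads of the opposite-strand precursor cannot be told apart from its own. All values of mt-Nd6 carry this limit.

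The low set comprised 6 neighbouring genes, mt-Co2, mt-Atp8, mt-Atp6, mt-Co3, mt-Nd3 and mt-Nd4l, with mean mRNA densities of 7.68 to 245, against 2682 to 13771 for the 7 others. In density the lowest of them was mt-Atp8 (MT:7766-7969), a small ATP synthase subunit, at 7.68, and the highest mt-Atp6 (MT:7927-8607), which forms part of the ATP synthase proton channel, at 245. The cytochrome c oxidase genes mt-Co2 (MT:7013-7696) and mt-Co3 (MT:8607-9390) stood at 146 and 85.5, and the complex I genes mt-Nd3 (MT:9459-9806) and mt-Nd4l (MT:9877-10173) at 109 and 78.1. All 6 lie in a stretch that has a nuclear copy. On chromosome 1 of mm10 the table annotates 7 pseudogenes, all on the minus strand, whose order and lengths run along MT positions 6381 to 11043 to within 3 bases of the member starts or ends they share.

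The pairs along that stretch were Gm29216 (chr1:24615706-24616197) with the last 31.8% of mt-Co1, Gm28661 (chr1:24614885-24615565) with mt-Co2, Gm10925 (chr1:24613974-24614651) with mt-Atp6, Gm28437 (chr1:24613189-24613971) with mt-Co3, Gm28438 (chr1:24612775-24613119) with mt-Nd3, Gm10222 (chr1:24612407-24612700) with mt-Nd4l, and Gm28439 (chr1:24611535-24612410) with the first 63.6% of mt-Nd4. The match is by position and length, since no sequence of either locus was read here. Summed over 8 mRNA libraries, the nuclear copies of mt-Co2, mt-Atp6 and mt-Co3 had 11969, 15504 and 6305 counts, beside 12980, 21946 and 8684 on the mitochondrial genes. The copies of mt-Nd3 and mt-Nd4l had 744 and 1166 counts, beside 4951 and 3019. Reads that match both loci are uncertain for all 7 pairs, and how the counting treated such reads is not given in the sources used here. Values of the 6 genes inside the stretch, and of the tRNAs mt-Ts1, mt-Td, mt-Tk, mt-Tg and mt-Tr that lie between them, carry this limit throughout. The copied parts of mt-Co1 and mt-Nd4 carry it as well, so values over the whole length of these genes may be affected.

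Footprints covered the 13 coding genes unevenly. mt-Co2, mt-Co3, mt-Atp6 and mt-Nd4l, all inside the stretch with a nuclear copy, had 0 counts in all 8 footprint libraries, where 3 counts correspond to 0.930 to 5.77 CPM of the TMM-scaled library size, by library. Their nuclear copies were also at or near 0, with 2, 0, 0 and 1 footprint counts over the 8 libraries, in the same order. The copy of mt-Nd3 had 75. The other 9 genes had 1258 to 18628 footprint counts each over the 8 libraries. mt-Atp8, which is not paired with an annotated pseudogene of its own, was highest in footprint density at 15812 although it was lowest in mRNA density. The lowest of the 9 was mt-Nd4, which lies partly inside that stretch, at 178. mt-Nd2 (1675), mt-Nd3 (1630.3) and mt-Nd5 (979) lay between, with ranges that overlapped.

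Relative to mRNA, the 7 coding genes that are not wholly inside the copied stretch had fewer footprints, as group means, than the median nuclear protein-coding gene. Of these 7, mt-Co1 and mt-Nd4 lie partly in it, with 31.8 and 63.6% of their length. Their ratios are over the whole gene, and the part of the copied bases in them was not tested. The ratio of footprint density to mRNA density, formed between libraries of the same name, was 0.0597 to 0.512 in KO and 0.0328 to 0.197 in WT as means of these 7 genes, while the median nuclear protein-coding gene had 0.982 ± 0.0171 in KO and 1.01 ± 0.0138 in WT (SD, n = 4 each). Across 9445 nuclear protein-coding genes the 5th and 95th percentiles in WT were 0.330 and 2.59. These percentiles were formed from WT libraries only. The WT means of all 7 genes lay below that 5th percentile, but the KO means of mt-Nd2, mt-Nd5 and mt-Nd6 lay above it. In KO library 3 the ratios of mt-Nd2 and mt-Nd5 were 0.976 and 0.978, beside a nuclear median of 0.963. For mt-Co1 the ratio was 0.0597 ± 0.0286 in KO and 0.0328 ± 0.00663 in WT libraries, for mt-Nd4 0.0808 ± 0.0454 in KO and 0.0346 ± 0.00859 in WT libraries, for mt-Nd1 0.0738 ± 0.0505 in KO and 0.0394 ± 0.0145 in WT libraries and for mt-Cytb 0.1001 ± 0.0559 in KO and 0.0537 ± 0.00991 in WT libraries. Ratios were higher for mt-Nd2 (0.510 ± 0.318 in KO and 0.187 ± 0.0384 in WT libraries), mt-Nd5 (0.512 ± 0.320 in KO and 0.193 ± 0.0487 in WT libraries) and mt-Nd6 (0.405 ± 0.161 in KO and 0.197 ± 0.0202 in WT libraries). mt-Nd3, inside the copied stretch, had 16.9 ± 9.18 in KO and 12.5 ± 8.65 in WT libraries, with 504 to 694 mRNA counts per library. Whether the preparation kept mitochondrial and cytosolic ribosomes alike was not tested.

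The first genotype comparison asked whether footprint levels of the mitochondrial transcripts differ in KO brain. None of the 22 members tested passed an adjusted p of 0.05 in edgeR's quasi-likelihood test, which called 0% of all 8476 genes tested, and DESeq2 also called none of the 22. The 9 coding genes had log2 fold changes of KO over WT between 0.33 and 1.25, all positive, with a median of 0.71, while the median over all genes tested was −0.0038 and 49.6% of them were positive. Unadjusted p was under 0.05 for 6 of the 9 coding genes and for 11 of the 22 members, against 5.52% of all genes tested. The count of coding genes depended on the setting. It was 1 of 9 with library totals in place of TMM sizes, 3 or 4 with limma and 4 without KO library 3. It was 7 with DESeq2 and 9 without WT library 4. For none of the 22 members did the KO and WT libraries separate without overlap, which 1.57% of all genes did upward in KO and 2.04% downward. The 5 tRNA genes with counts below the filter, and the 10 genes at 0, had no test. The call depended on the genes tested: edgeR called 7 members without a filter on low counts (0.332% of all genes upward), and mt-Nd2 alone with protein-coding genes only (adjusted p = 0.0303, 0.0324% upward).

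The 4 largest footprint log2 fold changes among the 9 coding genes were those of mt-Nd2, mt-Nd5, mt-Nd4 and mt-Nd6. All 4 encode complex I subunits, but so do most of the 9. The complex I genes mt-Nd1 (0.68) and mt-Nd3 (0.39) lay below mt-Co1 (0.71). mt-Nd2 (ENSMUSG00000064345), whose product is a proton-pumping membrane subunit, had 979.7, 528, 1955 and 923 CPM in KO libraries 1 to 4 and 575, 431, 376 and 456 CPM in WT libraries 1 to 4. Its log2 fold change was 1.25 ± 0.33 (SE; adjusted p = 0.863, unadjusted p = 0.00201); 3 KO libraries lay above all WT libraries, with KO library 2 inside the WT range. mt-Nd5 (ENSMUSG00000064367), another proton-pumping subunit, had 859, 525, 2028 and 1025 CPM in KO libraries 1 to 4 and 688, 382, 404 and 478 CPM in WT libraries 1 to 4, a log2 fold change of 1.18 ± 0.35 (adjusted p = 0.863). KO library 3 stood apart from the rest for both genes, and KO library 2 was the lowest KO library.

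mt-Nd4, the third of the large pumping subunits, had 134, 61.2, 252 and 135 CPM in KO libraries 1 to 4 and 73.6, 64.8, 69.5 and 88.2 CPM in WT libraries 1 to 4, a log2 fold change of 0.94 ± 0.31 (adjusted p = 0.863). Here KO library 2 was below every WT library. mt-Nd6, another membrane subunit, had 238, 136, 338 and 227 CPM in KO libraries 1 to 4 and 163, 152, 111 and 103 CPM in WT libraries 1 to 4, a log2 fold change of 0.82 ± 0.25. mt-Nd1, next to the quinone site of complex I, had 186, 97.6, 419 and 218 CPM in KO libraries 1 to 4 and 123, 114, 156 and 171 CPM in WT libraries 1 to 4, a log2 fold change of 0.68 ± 0.33. The groups overlapped for both, through KO library 2. mt-Nd3 had 206, 133, 544 and 272 CPM in KO libraries 1 to 4 and 152, 166, 109 and 447 CPM in WT libraries 1 to 4, with WT library 4 second only to KO library 3, and a log2 fold change of 0.39 ± 0.45.

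The genes of the other complexes had positive values of 0.33 to 0.71. mt-Cytb had 342, 261, 711 and 321 CPM in KO libraries 1 to 4 and 299, 227, 228 and 274 CPM in WT libraries 1 to 4, a log2 fold change of 0.66 ± 0.27 (adjusted p = 0.881). mt-Co1 had 387, 331, 888 and 537 CPM in KO libraries 1 to 4 and 393, 265, 297 and 349 CPM in WT libraries 1 to 4, a log2 fold change of 0.71 ± 0.28 (adjusted p = 0.875). For both genes KO library 3 was well above the rest; KO library 2 lay inside the WT range for mt-Cytb, and KO libraries 1 and 2 for mt-Co1. mt-Atp8 had 1173, 754, 3096 and 1399 CPM in KO libraries 1 to 4 and 875, 634, 889 and 2708 CPM in WT libraries 1 to 4, a log2 fold change of 0.33 ± 0.48, with KO library 3 and WT library 4 both far above the others.

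**Figure D2:**
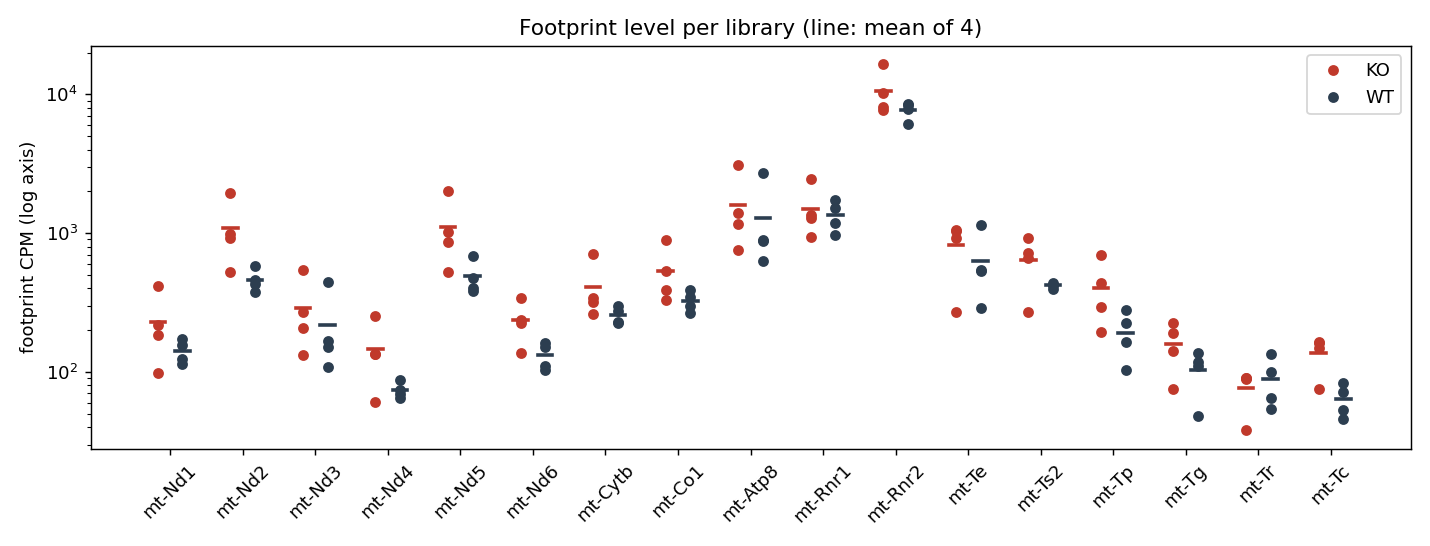
Footprint level (CPM of the TMM library size, log axis) of the 9 coding genes, both rRNA genes and the 6 tRNA genes with most footprints, per library, with KO left of WT and a bar at each mean of 4. For the coding genes the top KO point is KO library 3 each time, and the groups overlap for every gene drawn.

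Library depth was set beside these values. The shallowest footprint library, KO library 3, was the highest of all 8 libraries for 9 of 9 coding genes and for 8 of 11 tested tRNA genes. The raw footprint counts summed over the 7 coding genes not wholly inside the copied stretch were 2559, 3675, 3429 and 3450 in KO and 4084, 5272, 4486 and 5094 in WT, a spread of 2.06-fold between the highest and the lowest library. Total counts spread 5.96-fold over the same libraries and protein-coding counts 6.31-fold. The 7-gene sum leaves out mt-Atp8 and mt-Nd3. Over all 13 coding genes the counts were 3688, 5356, 5323 and 5153 in KO and 5897, 7851, 7211 and 13466 in WT. KO library 4 and WT library 4, with 452427 and 1178643 protein-coding counts, both had 1.14% of them on these genes. WT library 1, the WT library closest in total to KO libraries 1, 2 and 4, lay within the range of those 3 for 9 of 9 coding genes. In protein-coding counts KO library 2, with 847044, was the one KO library close to WT library 1, with 791699, and KO library 2 was the lower of the pair for 9 of 9 coding genes. Without KO library 3 the median log2 fold change of the coding genes was 0.37, with 7 of 9 positive, and with library totals in place of TMM sizes it was 0.47. The part of depth in the difference was not tested.

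**Figure D3:**
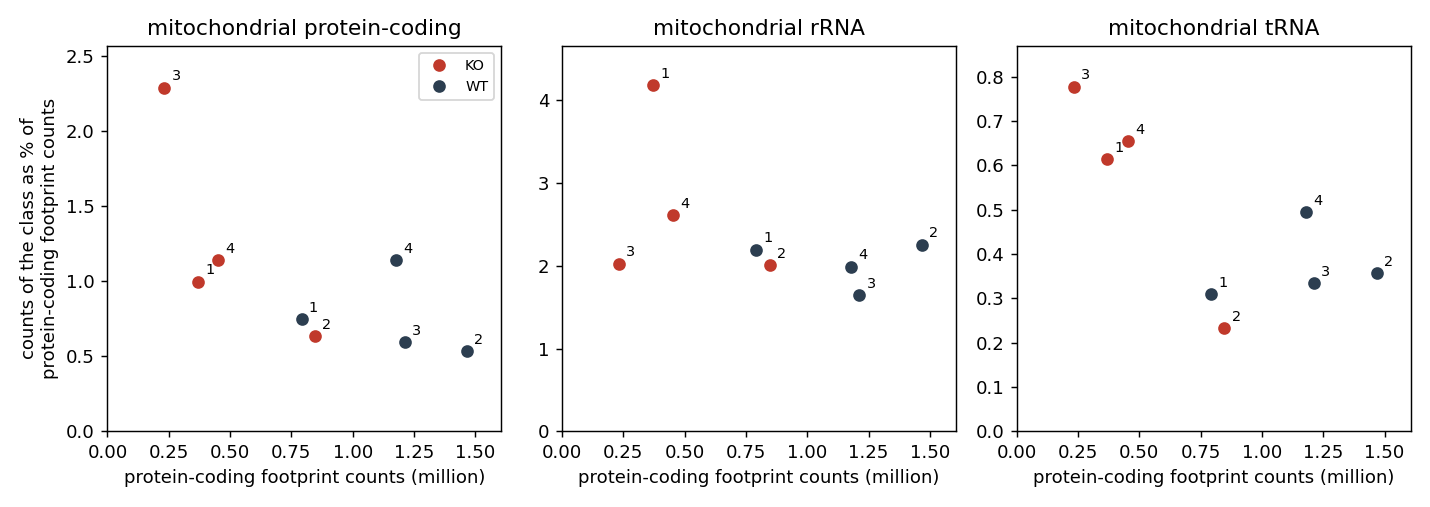
Counts of each mitochondrial class as a percentage of protein-coding footprint counts (y axis) against the protein-coding footprint counts of the library (x axis), with libraries numbered, KO in red and WT in dark blue. For the coding class KO library 3 has 2.29% at 232530 counts, while the 7 other libraries lie between 0.535 and 1.14%.

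The next comparison set mRNA levels of KO against WT brain. None of the 33 members tested passed an adjusted p of 0.05 in edgeR's test, which called 0% of the 13058 genes tested, and DESeq2 called none of the 33 either. All 13 coding genes had negative log2 fold changes, from −1.57 to −0.054 with a median of −0.21, where 51.4% of all genes tested were negative and the median of all was −0.0053. Unadjusted p was under 0.05 for 4 of the 13, mt-Nd4, mt-Co2, mt-Co3 and mt-Atp8, against 10.5% of all genes. Under the alternatives this count ranged from 2 (limma, and without KO library 2) to 7 (without WT library 4). The groups overlapped for each of the 33 members, while 2.85% of all genes separated upward in KO and 2.74% downward. In bulk tissue, fewer cells of a type and less RNA per cell cannot be told apart.

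Per library, WT libraries 1 and 2 were high for the complex I genes of the high set. mt-Nd4 had 4451, 3654, 3909 and 3964 CPM in KO libraries 1 to 4 and 5023, 5516, 4449 and 4182 CPM in WT libraries 1 to 4, a log2 fold change of −0.26 ± 0.094 (adjusted p = 0.406). mt-Nd2 had 5432, 4387, 4472 and 5129 CPM in KO libraries 1 to 4 and 5959, 6657, 4865 and 4458 CPM in WT libraries 1 to 4, a log2 fold change of −0.18 ± 0.12. For mt-Nd4 and mt-Nd2, WT libraries 1 and 2 exceeded every KO library, while WT libraries 3 and 4 lay within the KO range. The log2 fold changes were −0.22 ± 0.13 for mt-Nd1, −0.21 ± 0.12 for mt-Nd5 and −0.16 ± 0.11 for mt-Nd6.

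mt-Cytb had 10110.2, 8383, 8647 and 9657 CPM in KO libraries 1 to 4 and 11201, 12252, 9517 and 9483 CPM in WT libraries 1 to 4, a log2 fold change of −0.21 ± 0.095. mt-Co1 had 21110.5, 18153, 19701 and 20694 CPM in KO libraries 1 to 4 and 24377, 24546, 19551 and 19649.5 CPM in WT libraries 1 to 4, a log2 fold change of −0.15 ± 0.089. Again WT libraries 1 and 2 were the 2 highest. Without these 2 libraries 8 of 13 coding genes were negative and the median log2 fold change was −0.047.

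Inside the copied stretch the mRNA differences varied more. mt-Co3 had 58.0, 37.4, 51.2 and 53.8 CPM in KO libraries 1 to 4 and 48.5, 108, 104 and 67.0 CPM in WT libraries 1 to 4, a log2 fold change of −0.71 ± 0.24 (adjusted p = 0.397), the lowest adjusted p of the class. mt-Co2 had 92.7, 71.9, 88.0 and 79.8 CPM in KO libraries 1 to 4 and 84.0, 99.5, 158 and 111 CPM in WT libraries 1 to 4, a log2 fold change of −0.44 ± 0.17 (adjusted p = 0.421). In mt-Co3, WT libraries 2 and 3 were high and WT library 1 lay within the KO range, and in mt-Co2 WT library 3 stood above the rest. mt-Atp8, with 8 to 68 counts per library, had a log2 fold change of −1.57 ± 0.56 (adjusted p = 0.406). WT libraries 3 and 4 were at 4.17 and 3.20 CPM against 0.498 to 1.20 CPM in KO libraries. WT libraries 1 and 2, at 1.24 and 0.583 CPM, were near or within the KO range. The remaining members of the stretch had −0.13 ± 0.27 for mt-Atp6, −0.36 ± 0.38 for mt-Nd4l and −0.054 ± 0.12 for mt-Nd3.

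**Figure D4:**
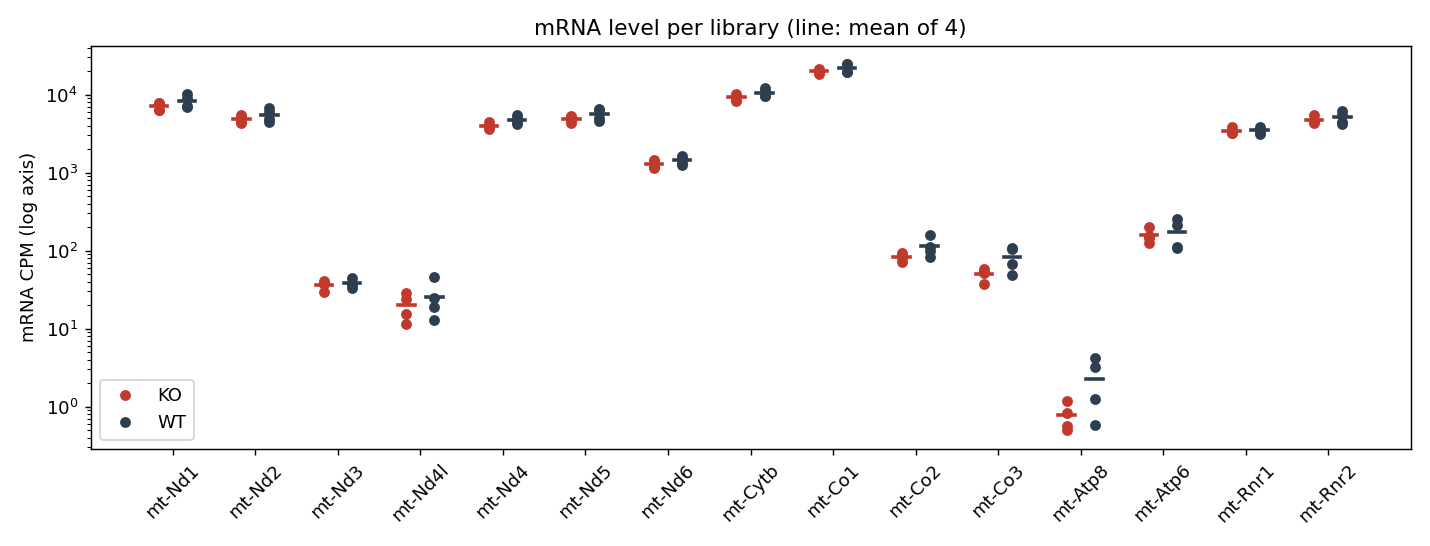
mRNA level (CPM of the TMM library size, log axis) of the 13 coding genes and both rRNA genes per library, with KO left of WT and a bar at each mean of 4. The groups overlap for every gene, and the low points belong to the 6 coding genes inside the stretch with a nuclear copy.

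Footprints relative to mRNA were tested as the genotype-by-library-kind term of a single edgeR fit, which takes the mRNA difference from the footprint difference; with positive footprint and negative mRNA values, the term is the larger of the 3 by construction in the 9 coding genes with footprints. None of the 24 members tested passed an adjusted p of 0.05, and the model called 0% of 9673 genes tested. All 9 had positive log2 values, 0.40 to 1.90 with a median of 0.97, against 49.8% positive and a median of −0.0027 over all genes tested. Unadjusted p was under 0.05 for 8 of the 9, against 10.9% of all genes. Under the alternatives this count ranged from 4 (library totals) to 9 (without WT library 4). mt-Nd2 had 1.43 ± 0.33 (SE; adjusted p = 0.159), mt-Nd5 1.39 ± 0.36 (adjusted p = 0.203), mt-Nd4 1.17 ± 0.32 (adjusted p = 0.203) and mt-Nd6 0.97 ± 0.26 (adjusted p = 0.203). The log2 value was 0.86 ± 0.27 for mt-Co1, 0.86 ± 0.27 for mt-Cytb, 0.88 ± 0.35 for mt-Nd1, 1.90 ± 0.82 for mt-Atp8 and 0.40 ± 0.48 for mt-Nd3.

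The footprint side of these values holds the high KO library 3, and the mRNA side the high WT libraries 1 and 2; the part of either in them was not tested. DESeq2's interaction test called 2 of the 24, mt-Nd2 and mt-Nd5 (adjusted p = 0.0256 and 0.0452), with 0.899% of all genes called upward. Without KO library 2, edgeR called mt-Nd2 and mt-Nd4, with 0.0414% of all genes called upward, and without KO library 3 it called none, with a median of 0.73 and 8 of 9 coding genes positive.

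**Figure D5:**
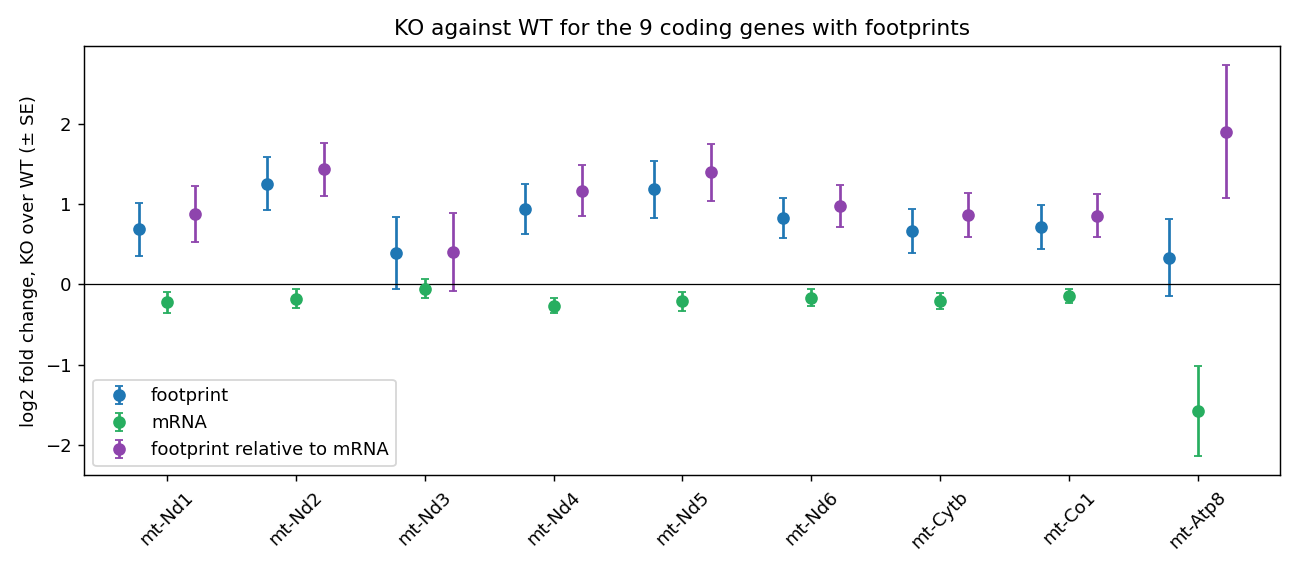
log2 fold change of KO over WT (± SE) for the 9 coding genes with footprints, in footprints, in mRNA and in footprints relative to mRNA. Footprint values are all above 0 and mRNA values all below 0, and none passed the adjusted threshold.

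The 2 ribosomal RNA genes held 1.25, 1.31, 0.803 and 0.960% of all footprint counts in KO libraries 1 to 4 and 1.45, 1.17, 0.570 and 0.801% in WT libraries 1 to 4, with overlapping groups. mt-Rnr2 (MT:1094-2675), the large-subunit 16S rRNA, had 16466, 7692, 8109 and 10248 CPM in KO libraries 1 to 4 and 8331, 8529.8, 6112 and 7865 CPM in WT libraries 1 to 4, a log2 fold change of 0.46 ± 0.36 (adjusted p = 0.910). mt-Rnr1 (MT:70-1024), the small-subunit 12S rRNA, had 2439.6, 1275, 942 and 1343 CPM in KO libraries 1 to 4 and 1508, 1740.4, 1174 and 970.1 CPM in WT libraries 1 to 4, a log2 fold change of 0.15 ± 0.30 (adjusted p = 0.972). KO library 1 was highest for both genes and KO library 3, highest for the coding genes, was lowest for mt-Rnr1. In mRNA libraries mt-Rnr2 averaged 4797 ± 529 CPM in KO and 5129 ± 958 CPM in WT libraries (SD, n = 4 each) with a log2 fold change of −0.097 ± 0.13, and mt-Rnr1 averaged 3401 ± 313 CPM in KO and 3474 ± 351 CPM in WT libraries with −0.030 ± 0.087. The 2 rRNAs were thus near each other per length in mRNA libraries, at densities of 3182 for mt-Rnr2 and 3652 for mt-Rnr1, and unequal in footprint libraries, at 12933 and 3325. Relative to the mRNA libraries the log2 fold change was 0.57 ± 0.25 (adjusted p = 0.413) for mt-Rnr2 and 0.20 ± 0.28 for mt-Rnr1. Footprint density over mRNA density was 5.04 ± 2.37 in KO and 3.32 ± 0.353 in WT libraries for mt-Rnr2 and 0.998 ± 0.483 in KO and 0.842 ± 0.143 in WT libraries for mt-Rnr1.

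The tRNA genes held 0.183, 0.151, 0.308 and 0.241% of all footprint counts in KO libraries 1 to 4 and 0.204, 0.185, 0.116 and 0.199% in WT libraries 1 to 4, and 0.0164 to 0.0197% of mRNA counts in KO and 0.0170 to 0.0181% in WT. Of the 22 genes, 16 had footprint-library counts and 20 had mRNA-library counts. mt-Tf, mt-Tl1, mt-Ti, mt-Tq, mt-Ty and mt-Tl2 were at 0 in all 8 footprint libraries, and mt-Tf and mt-Td in all 8 mRNA libraries. Footprint-library reads were concentrated on a few tRNAs. mt-Te (MT:14071-14139, minus strand), the tRNA for glutamate, held 9652 counts over 8 libraries and mt-Ts2 (MT:11613-11671), a tRNA for serine, 6585, followed by mt-Tp for proline with 3309, mt-Tg for glycine with 1621, mt-Tr for arginine with 1238 and mt-Tc for cysteine with 1176. The 10 other tRNA genes with footprint-library counts had 4 to 1099 each. In mRNA libraries the leading tRNA genes were mt-Tp with 10596 counts, mt-Tc with 4129, mt-Tn for asparagine with 3500, mt-Te with 1527, mt-Tl1 for leucine with 937 and mt-Ty for tyrosine with 833. Of these 6, all but mt-Tl1 lie on the minus strand, opposite the strand of most coding genes, and without a stated strand setting reads of the opposite-strand precursor cannot be told apart from reads of the tRNA.

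Per length, the tRNA genes differed widely between the 2 kinds of library. The ratio of footprint density to mRNA density was 1116 ± 287 in KO and 732 ± 137 in WT libraries for mt-Ts2 and 139 ± 63.0 in KO and 137 ± 53.4 in WT libraries for mt-Te. It was 11.4 ± 4.95 in KO and 5.15 ± 2.32 in WT libraries for mt-Tp and 9.06 ± 2.51 in KO and 4.80 ± 1.07 in WT libraries for mt-Tc. It was 2.88 ± 1.72 in KO and 1.36 ± 0.612 in WT libraries for mt-Tn, with WT libraries 1 and 3 at 0.816 and 0.862, and mt-Tl1 and mt-Ty, among the leading tRNAs of the mRNA libraries, were at 0 in footprints. mt-Tg and mt-Tr had under 10 mRNA counts in at least 1 library and were given no ratio. The nuclear protein-coding medians given above set the scale of these ratios, which for tRNA genes describe the libraries and not translation.

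Between genotypes, 10 of the 11 tRNA genes tested in footprints had positive log2 fold changes, with a median of 0.61, where 49.6% of all genes tested were positive. Unadjusted p in edgeR's test was under 0.05 for 5 of the 11, against 5.52% of all genes. KO library 3 was the highest of the 8 libraries for 8 of the 11 and KO library 2 the lowest for 5, so the genes share the same libraries. mt-Tc had 148, 74.9, 163 and 163 CPM in KO libraries 1 to 4 and 71.9, 83.7, 45.7 and 52.8 CPM in WT libraries 1 to 4, a log2 fold change of 1.09 ± 0.26 (adjusted p = 0.863, unadjusted p = 0.000838). KO library 2 was the one KO library within the WT range. mt-Tp had 294, 193, 696 and 439.6 CPM in KO libraries 1 to 4 and 278, 163, 102 and 225 CPM in WT libraries 1 to 4, a log2 fold change of 1.07 ± 0.36 (adjusted p = 0.863). mt-Ts2 had 722, 270.2, 921 and 658 CPM in KO libraries 1 to 4 and 437, 399, 424 and 421 CPM in WT libraries 1 to 4, a log2 fold change of 0.61 ± 0.29, and its 4 WT libraries lay close together. The values were 0.59 ± 0.33 for mt-Tg and 0.39 ± 0.43 for mt-Te, where KO library 2 and WT library 4 departed from their groups, and −0.24 ± 0.31 for mt-Tr, the one negative value. The 5 other tRNA genes tested had values of 0.50 to 1.12, with the highest for mt-Tn.

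In mRNA libraries 9 of the 18 tRNA genes tested were positive and 9 negative, near the 48.6 and 51.4% of all genes, with a median of −0.032, and none had an unadjusted p under 0.05. The log2 fold changes of the named tRNAs were −0.13 ± 0.11 for mt-Tp, 0.22 ± 0.12 for mt-Tc, 0.28 ± 0.16 for mt-Tn, 0.40 ± 0.21 for mt-Te, −0.068 ± 0.20 for mt-Tl1 and 0.35 ± 0.25 for mt-Ty. Of the 7 minus-strand tRNA genes tested 4 were positive and 3 negative, and of the 11 on the plus strand 5 were positive and 6 negative. mt-Tn had 25.4, 24.6, 25.8 and 39.6 CPM in KO libraries 1 to 4 and 24.4, 27.2, 19.7 and 23.8 CPM in WT libraries 1 to 4, with KO library 4 far above the rest.

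Nuclear genes that act on the mitochondrial genome, or whose products join those of the mitochondrial genes in one complex, had medians near 0. Of 68 genes in the table for mitochondrial gene expression (polymerase, transcription and RNA-binding factors, RNA modification, translation factors), 35 were tested in footprints, 63 in mRNA and 53 relative to mRNA, none passed, and the median log2 fold changes were −0.024, 0.022 and 0.0082. Unadjusted p was under 0.05 for 1, 3 and 2 of them, where the shares of all genes tested were 5.52, 10.5 and 10.9%. Polrmt, the mitochondrial RNA polymerase, had 10.9 ± 7.73 CPM in KO and 8.60 ± 1.62 CPM in WT libraries in footprints (log2 fold change 0.40 ± 0.45), and Tfam, which packages and starts transcription of mitochondrial DNA, had 16.5 ± 7.06 CPM in KO and 12.4 ± 2.76 CPM in WT libraries (0.40 ± 0.36). Lrpprc, which stabilises mitochondrial mRNAs, had 102 ± 15.9 CPM in KO and 104 ± 14.5 CPM in WT libraries (−0.024 ± 0.16). Tufm, the mitochondrial elongation factor that delivers tRNAs, had 6.57 ± 3.88 CPM in KO and 10.3 ± 1.56 CPM in WT libraries (−0.70 ± 0.42). In mRNA the log2 fold changes were −0.029 ± 0.081 for Polrmt, −0.024 ± 0.068 for Tfam, −0.10 ± 0.097 for Lrpprc and 0.12 ± 0.085 for Tufm.

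Of 39 nuclear oxidative phosphorylation subunits, 38 were tested in footprints, 39 in mRNA and 38 relative to mRNA, and none passed. Their median log2 fold changes were 0.042, 0.031 and −0.0072, and unadjusted p was under 0.05 for 4, 1 and 3, to be read against the same shares of all genes. Their summed footprint level was 6218 to 6960 CPM over the KO libraries and 6398 to 7199 CPM over the WT libraries. Cox4i1, the nuclear partner of mt-Co1 in cytochrome c oxidase, had 208 ± 34.5 CPM in KO and 223 ± 60.4 CPM in WT libraries in footprints (log2 fold change −0.094 ± 0.20), and Atp5b, the catalytic subunit of ATP synthase, had 968 ± 48.4 CPM in KO and 1024 ± 76.5 CPM in WT libraries (−0.081 ± 0.19). KO library 3, high for the mitochondrial coding genes in footprints, was within the range of the other libraries for the summed nuclear subunits in footprints. In mRNA its sum, 7855 CPM, was the lowest of the 8 libraries, with WT library 2 next at 7889 CPM.

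Summed levels of some cell type markers did not overlap between the genotype labels in the same libraries. Of 6 oligodendrocyte markers, 6 were negative in both kinds of library, and their summed level was 1470 to 1924 CPM in KO and 2116 to 2493 CPM in WT footprints, and 4283 to 5946 CPM in KO and 6616 to 7253 CPM in WT mRNA. The 6 neuron markers were all positive in mRNA, summing to 6477 to 7296 CPM in KO and 5439 to 6078 CPM in WT. Gad1 and Stmn2 were near 0 there, with log2 fold changes of 0.0079 and 0.014. Snap25, the largest member, averaged 3011 CPM in KO and 2353 CPM in WT mRNA. In footprints all 6 were negative and summed to 2747 to 3010 CPM in KO and 2613 to 4225 CPM in WT. Over all genes tested, 49.6% were positive in footprints and 48.6% in mRNA. The 6 choroid plexus and ependyma markers summed to 50.6 to 1173 CPM in KO and 310 to 1155 CPM in WT mRNA. Astrocyte sums were 3990 to 4568 CPM in KO and 3735 to 4374 CPM in WT mRNA, microglia sums 267 to 284 CPM in KO and 267 to 307 CPM in WT mRNA, and endothelial and pericyte sums 344 to 389 CPM in KO and 338 to 376 CPM in WT mRNA. Endothelial and pericyte sums were 126 to 136 CPM in KO and 138 to 165 CPM in WT footprints, again without overlap. The nearest libraries of the groups were close, at 136.4 CPM in KO and 137.6 CPM in WT. Slc2a1, the largest member, averaged 61.9 CPM in KO and 75.8 CPM in WT. Of 5 markers tested in footprints, 4 were negative and 1, Flt1, was positive (log2 fold change 0.23). Skeletal muscle markers summed to 30.5, 9.50, 36.5 and 3.93 CPM in KO libraries 1 to 4 and 6.23, 14.9, 8.42 and 8.29 CPM in WT libraries 1 to 4 in footprints, with KO library 3, the highest for the mitochondrial coding genes, again the highest of the 8. This sum rests on few counts: in KO library 3 Acta1 had 23.1 CPM and every other muscle marker was below the 3-count floor of 5.77 CPM. In mRNA, KO library 3 summed to 12.4 CPM, below KO library 2 at 13.5 CPM. Red blood cell markers summed to 8.97 to 39.1 CPM in KO and 7.93 to 41.2 CPM in WT footprints, choroid plexus and ependyma markers to 860.0 to 1344 CPM in KO and 765 to 1986 CPM in WT, astrocyte markers to 2439.5 to 2718 CPM in KO and 2542 to 2971 CPM in WT, and microglia markers to 151 to 178 CPM in KO and 159 to 209 CPM in WT footprints. Red blood cell markers summed to 68.3 to 222 CPM in KO and 65.7 to 158 CPM in WT mRNA, and skeletal muscle markers to 9.16 to 13.5 CPM in KO and 7.71 to 11.6 CPM in WT mRNA. No marker was at 0 in all libraries, no single marker passed the adjusted threshold, and the part of cell make-up in the mitochondrial values was not tested.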

How the data were processed

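The deposited gene table holds raw counts made by the authors for footprint and mRNA libraries, with biotype, position and length per gene. The deposited RPKM tables hold the authors' values of both kinds and were used to filter genes and in alternatives. Per the submitters' processing notes TopHat2 and mm10 were used. The counting program, annotation release, strand setting and treatment of multiply mapped reads are not given in the sources used here. Libraries were grouped by their labels, and the mRNA columns by the genotype and number in their names.

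KO was tested against WT on counts of all biotypes by edgeR's quasi-likelihood test (version 4.0.16, R 4.3.3) after TMM scaling, with Benjamini-Hochberg adjustment over all genes tested and a threshold of 0.05. The footprint test took genes passing filterByExpr (minimum count 10), the mRNA test those whose mean RPKM reached 1, and the interaction model those reaching it in both kinds. The script was tested on simulated counts. Alternatives used DESeq2 1.42.0, limma 3.58.1 on log2 RPKM with pseudocounts of 0.1 and 1, other scalings and filters, a replicate block and libraries left out. Density used the deposited gene length. Floors were set at 3 counts.

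Members and lists were chosen with earlier results of these data known. The text names all coding and rRNA genes, the 6 tRNA genes with most counts in each kind of library, the nuclear copy genes, and 6 nuclear genes by role where no list member passed. mt-Tw, mt-Tv and the other unnamed tRNAs are given by counts and ranges only.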

Additional observations from a re-analysis of the deposited data

Results flagged for a closer look

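Of 88 groups of 4 libraries examined for a library far from the others of its group, 6 had one; chance gives about 1 in 20. In footprints, mt-Atp8 and mt-Nd3 were high in WT library 4, at 2708 CPM against 634 to 889 CPM in the other WT libraries for mt-Atp8, and at 447 CPM against 109 to 166 CPM for mt-Nd3. Both genes lie inside the stretch with a nuclear copy. KO library 2 was low for 2 tRNAs in footprints, with 38.0 CPM for mt-Tr against 88.4 to 90.4 CPM in the other KO libraries, and 269 CPM for mt-Te against 926 to 1046 CPM. In mRNA, KO library 3 was high for mt-Rnr1, at 3870.0 CPM against 3214 to 3275 CPM in the other KO libraries, and KO library 4 was high for mt-Tn, at 39.6 CPM against 24.6 to 25.8 CPM.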

How the results depend on the processing

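Of 877 values of single genes under an alternative, 842 kept their sign and side of the threshold, 10 passed it and 25 changed sign. Members called in footprints were 0 in edgeR, 7 of 27 tested without a filter (mt-Nd2, mt-Nd4, mt-Nd5, mt-Tc, mt-Tp and 2 other tRNAs; 0.332% of all genes called upward) and 1 with protein-coding genes only (mt-Nd2, adjusted p = 0.0303; 0.0324%); relative to mRNA they were 0 in edgeR and 2 in DESeq2. Leaving out each library gave 0 to 0 called members in footprints, 0 to 0 in mRNA and 0 to 2 relative to mRNA. Over all genes edgeR called 0, 0 and 0 in footprints, mRNA and footprints relative to mRNA, and DESeq2 4, 75 and 150. Same-number KO and WT libraries correlated at −0.245 to 0.0739 in footprints and −0.302 to 0.0261 in mRNA in their deviations from the group means, and 1 of 8 and 0 of 8 libraries correlated best with their own number, so the numbers were not taken to pair libraries; a replicate block gave 0 called members in all 3 comparisons, with coding medians of 0.62, −0.20 and 0.97. The log2 ratio of mean class shares, KO over WT, ranged on leaving out each library over 0.071 to 0.70 (coding), −0.074 to 0.35 (rRNA) and 0.13 to 0.47 (tRNA) in footprints, and over −0.26 to −0.13, −0.15 to 0.0011 and −0.0039 to 0.085 in mRNA. The coding median ranged over 0.37 (without KO library 3) to 1.01 (without WT library 4) in footprints, −0.29 to −0.14 in mRNA and 0.73 to 1.14 relative to mRNA. Without WT libraries 1 and 2, chosen after seeing the data for the class shares, these ratios were 0.66 for rRNA in footprints, −0.026 for coding genes and 0.099 for rRNA in mRNA.

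The gene values that changed sign were the following, and the cause was not tested. With library totals mt-Rnr1 was −0.14 in footprints. On leaving out each library, footprint values ranged from −0.18 (without KO library 1) to 0.34 for mt-Rnr1, from −0.42 to 0.043 (without WT library 4, and 0.021 without KO library 2) for mt-Tr, and from −0.19 to 1.01 for mt-Atp8 and −0.097 to 1.01 for mt-Nd3, with both lowest values without KO library 3. In mRNA they ranged from −0.30 to 0.12 for mt-Atp6 and −0.19 to 0.12 for mt-Tl1 (highest without WT library 4), −0.12 to 0.034 for mt-Nd3 (0.034 without KO library 2 and without WT library 2), −0.60 to 0.080 for mt-Nd4l (highest without WT library 3), −0.095 to 0.024 for mt-Rnr1 and −0.18 to 0.013 for mt-Rnr2 (highest without WT library 2). Relative to mRNA, mt-Nd3 ranged from −0.0082 (without KO library 3) to 1.02. Without WT libraries 1 and 2, mt-Atp8 was −0.17 and mt-Te −0.031 in footprints, mt-Nd3 −0.047 relative to mRNA, and in mRNA mt-Nd1 was 0.025, mt-Nd2 0.058, mt-Nd3 0.041, mt-Co1 0.023, mt-Nd5 0.026, mt-Rnr1 0.093, mt-Rnr2 0.14 and mt-Tp 0.0061. Shallow footprint libraries limit precision, with a median SE of 0.29 per gene in footprints against 0.11 in mRNA.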
